A study of Homo sapiens with 9 samples.

Results

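The proteasome is the large protease that degrades proteins tagged with ubiquitin, and its subunits, activators and dedicated assembly chaperones carry gene symbols that begin with PSM. The members described here were all genes in the table whose symbol was PSM, a letter from A to G and a number, a choice by name and not by measured value. There were 48 such genes of 23369 in the table. RNA had been sequenced from NCI-H1155, an established human lung cancer line with neuroendocrine features. The cells were plated for 24 h and then exposed to 1 µM foretinib or 1 µM cabozantinib for 4 h, or to the vehicle DMSO. No exposure time is listed for the DMSO libraries. The series asks how structurally related multi-kinase inhibitors differ in what they do. There were 3 libraries per group, described by the submitters as biological triplicates of this 1 line, and the p-values measure the spread between them. The libraries carry the numbers 1, 2 and 4 for foretinib, 3, 4 and 5 for cabozantinib and 2, 4 and 5 for DMSO, and values per library are printed in that order. All values are normalised read counts unless a unit is named, and a value with an error is a mean ± SD of 3 libraries.

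A proteasome consists of a barrel-shaped core particle, built of rings of alpha and beta subunits, and regulatory particles that cap its ends. The cap binds ubiquitin chains, removes them, unfolds the substrate with a ring of ATPases and feeds it into the core, where the beta subunits PSMB5, PSMB6 and PSMB7 cut it. Immune signals replace these with PSMB8, PSMB9 and PSMB10, and other activators can take the place of the cap. Cells that run short of proteasome activity raise many of these genes together through the transcription factor NFE2L1, which binds antioxidant response elements in their promoters.

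Across the 48 genes no transcript passed the test in any comparison, and the share of reads held by the proteasome genes together differed between groups by less than the SD of the foretinib libraries. The members together held 0.615% ± 0.0415 of the reads in foretinib, 0.606% ± 0.0122 in cabozantinib and 0.589% ± 0.0233 in DMSO. The inhibitor PSMF1 was higher in all foretinib libraries than in any other library, and so was the sum of the activators with PSMF1, but not the sum of the activators without it. The summed standard beta subunits were lower in all cabozantinib libraries than in any DMSO library, and the summed PSMD genes were higher. Of the 14 PSMD genes, however, 6 had a fitted change below 0 there. The ATPase PSMC5 was lower on average in foretinib, through 2 of its 3 libraries.

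The antioxidant response core TGACNNNGC, the sequence bound by NFE2L1 with its small MAF partners, was searched on both strands in the RefSeq promoter windows of build GRCh38.p14, which run from 250 bases before to 50 bases after a gene's start. Of the 48 members 42 had a window, and PSMA7, PSMB1, PSMB6, PSMB7, PSMD4 and PSMG3 had none. The core was present in 13 of the 42, or 31.0%, and in 13.6% of all 27305 promoter windows. The CCAAT box, a common promoter element searched in the same way, was present in 19 of 42 members, or 45.2%, and in 35.7% of all windows. The 2 motifs can share no more than 1 base, the first also takes in sites of related leucine zipper factors, and a match is a run of letters, not a measured binding site. Shown are the windows of 3 members picked by hand, with the antioxidant response core in capitals. How many of these 3 hold the core says nothing about the other members.
PSMB3, chr17:38752491-38752790, plus strand: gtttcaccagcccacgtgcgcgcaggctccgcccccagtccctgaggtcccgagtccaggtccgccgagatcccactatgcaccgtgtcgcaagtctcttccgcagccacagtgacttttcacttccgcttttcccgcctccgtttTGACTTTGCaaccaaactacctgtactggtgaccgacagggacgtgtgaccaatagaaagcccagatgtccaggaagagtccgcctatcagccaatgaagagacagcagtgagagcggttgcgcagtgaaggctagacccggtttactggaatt
PSMD1, chr2:231056617-231056916, plus strand: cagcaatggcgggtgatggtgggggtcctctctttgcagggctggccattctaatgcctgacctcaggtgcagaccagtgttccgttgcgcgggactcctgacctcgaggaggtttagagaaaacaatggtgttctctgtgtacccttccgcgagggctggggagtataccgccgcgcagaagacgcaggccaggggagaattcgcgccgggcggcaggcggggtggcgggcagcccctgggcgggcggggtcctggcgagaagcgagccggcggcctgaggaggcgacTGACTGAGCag
PSMF1, chr20:1113013-1113312, plus strand: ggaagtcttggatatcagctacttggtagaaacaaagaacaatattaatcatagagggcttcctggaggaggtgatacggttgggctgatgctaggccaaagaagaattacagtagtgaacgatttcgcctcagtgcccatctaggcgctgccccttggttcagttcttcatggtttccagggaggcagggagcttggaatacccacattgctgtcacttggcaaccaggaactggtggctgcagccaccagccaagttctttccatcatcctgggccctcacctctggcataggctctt
In the PSMB3 window the core begins 104 bases before the transcript start, and in the PSMD1 window it begins 39 bases after it. The letters of the core do not occur in the PSMF1 window.

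Of the 48 members, 46 passed the filter for testing, a value of at least 10 in at least 3 libraries. PSMA8, the testis form of an alpha subunit, and PSMB11, the catalytic subunit of thymic epithelium, were listed at 0 in all 9 libraries. PSMG4, an assembly chaperone, passed only through the 3 cabozantinib libraries and foretinib library 2, so its difference from DMSO was built into its passing. Each gene was fitted on log2(value + 1) with limma over all 12642 tested genes, and a call needed a Benjamini-Hochberg adjusted p under 0.05. In foretinib against DMSO 0 of 46 members were called, where the share of all tested genes called was 0%. At an unadjusted p under 0.05 there were 3 members, PSMF1 and PSMD1 higher and PSMC5 lower in foretinib, against 9.07% of all tested genes, 2.17% higher and 6.9% lower. In cabozantinib against DMSO 0 members were called (0% of all genes), and PSMG4, higher in cabozantinib, was the 1 member with an unadjusted p under 0.05, against 1.31% of all genes, 0.878% higher and 0.435% lower. In foretinib against cabozantinib 0 members were called (0% of all genes), and PSMF1 was higher and PSMC5 and PSMG4 lower at an unadjusted p under 0.05, against 9.9% of all genes, 1.83% higher and 8.08% lower. The edgeR and DESeq2 count tests on the recovered reads called 0 members in each comparison as well. Over all tested genes edgeR called 0 and DESeq2 called 656, 49 and 621 in the 3 comparisons in this order.

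**Figure D1:**
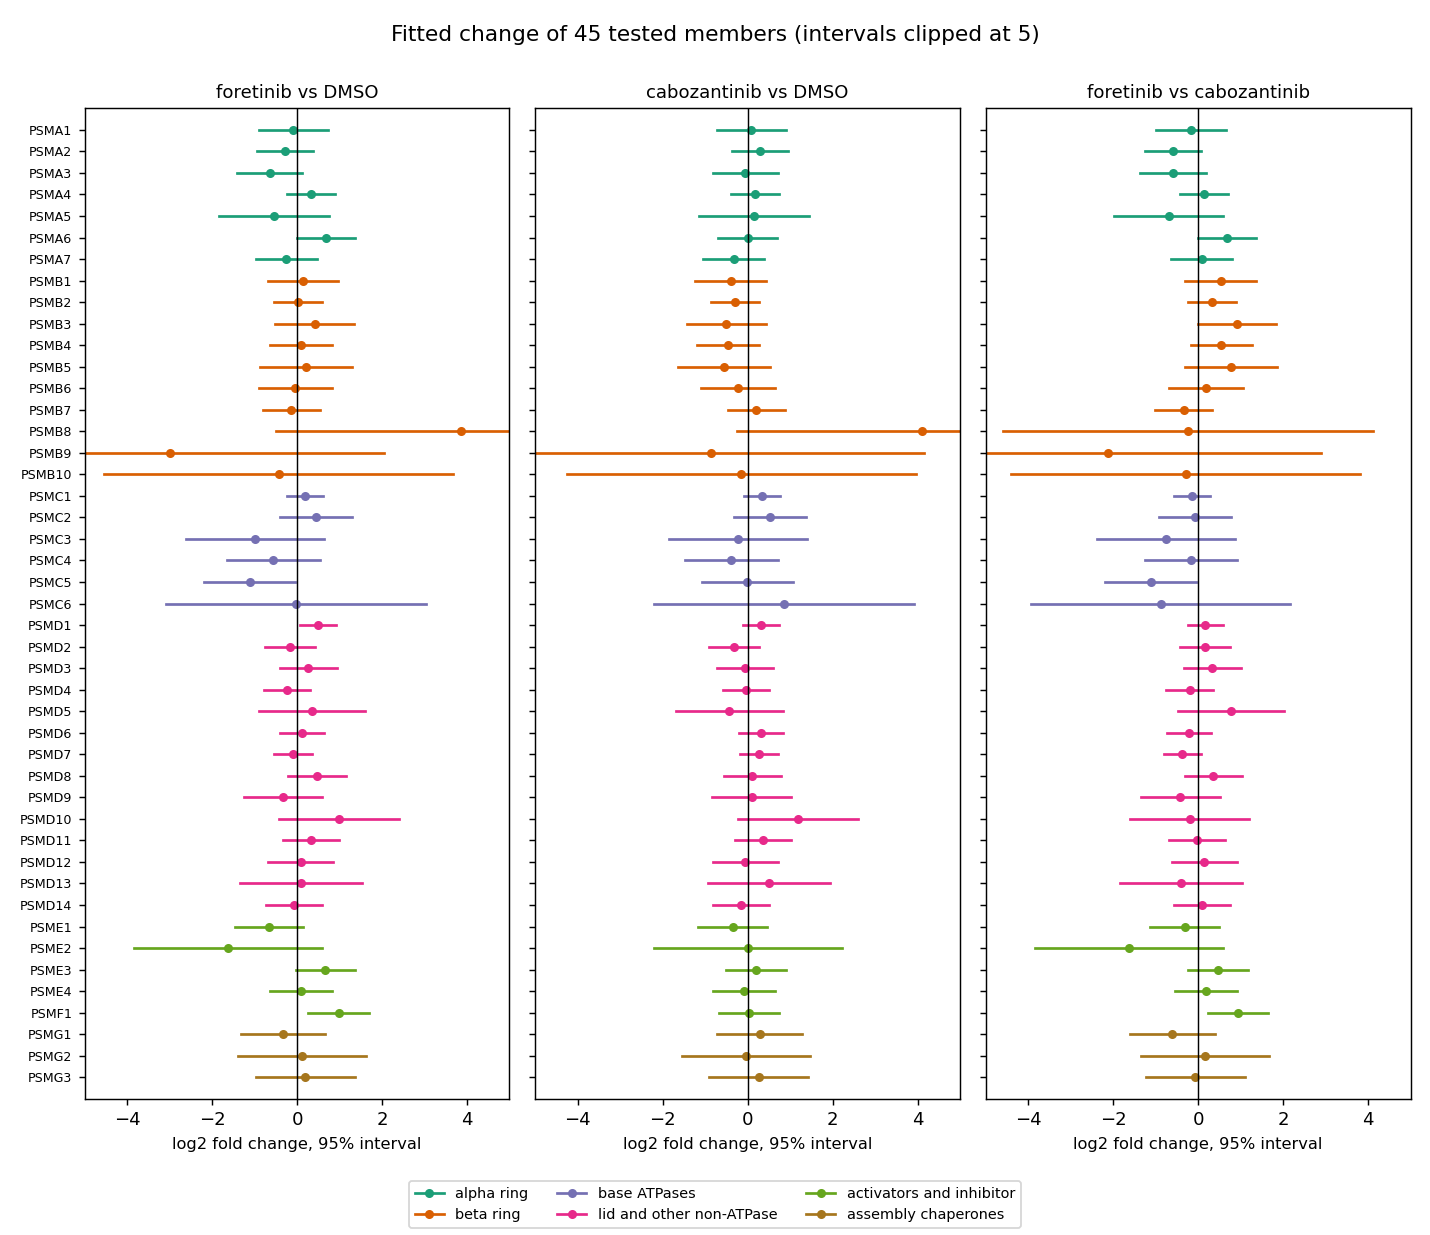
Fitted log2 fold changes (points) with 95% intervals (lines) of 45 tested members in the 3 comparisons, coloured by role; PSMG4, listed at 0 in DMSO, is left out, and intervals are clipped at 5. Most intervals span 0, and those of PSMB8, PSMB9 and PSMB10 are the widest.

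The intervals show how large a change could have been missed. In foretinib against DMSO the 95% interval lay wholly within a 2-fold change in either direction for 20 of 46 members and within a 4-fold change for 37. In cabozantinib against DMSO these counts were 20 and 39. Foretinib against cabozantinib gave 16 and 37. The median width of an interval was 1.63 on the log2 scale in each comparison, since the fit estimates 1 spread per gene over all 9 libraries. The intervals and p-values of cabozantinib against DMSO thus also carry the spread of the foretinib libraries. The median member had a log2 fold change of 0.09 in foretinib against DMSO, 0.0018 in cabozantinib against DMSO and -0.12 in foretinib against cabozantinib. Over all tested genes the medians were -0.34, 0.04 and -0.44 in the same order. Those medians moved to -0.04, 0.01 and -0.05 under quantile normalisation, where the member medians were 0.00, 0.04 and -0.11. On the main scale the medians over the 7805 tested genes at a mean of 500 or more were -0.10, 0.01 and -0.11 in that order. In foretinib against DMSO the member median lay above the gene median each time. The gap was smaller under quantile normalisation and beside the genes at a mean of 500 or more. For foretinib against cabozantinib the order itself depended on the scaling and on the genes compared. In foretinib against cabozantinib the member median was below that of all tested genes under quantile normalisation. On the main scale it was not above that of the genes at a mean of 500 or more. Foretinib libraries also differed in detection: the share of tested genes at 0 was 16.3% to 21.0% in foretinib, 4.41% to 5.48% in cabozantinib and 5.30% to 10.9% in DMSO, with 26996023 to 34062153 reads per library. The part of this difference in the results for foretinib was not tested.

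Of the 6 role groups, the activators with the inhibitor were the 1 whose foretinib sums overlapped neither other group. PSME1 and PSME2 form the interferon-inducible activator PA28, PSME3 forms its nuclear relative, PSME4 encodes the large activator PA200, and PSMF1 encodes PI31, first described as an inhibitor of the core particle in the test tube. Their summed level was 26333, 26071 and 25783 in foretinib, 21087, 20790.2 and 18249 in cabozantinib, and 23024, 21862 and 18406 in DMSO. All 3 foretinib sums lay above all 6 others, the ratio of means being 1.24 to DMSO and 1.30 to cabozantinib. The foretinib sum stayed above every other library with TMM scaling, at ratios of 1.21 and 1.27, and with quantile normalisation, at 1.15 and 1.22. Without PSMF1 the groups overlapped: PSME1 to PSME4, a sum added after the values were seen, came to 15839, 18688 and 19298 in foretinib, 15976, 15927 and 15392 in cabozantinib, and 19131, 15664 and 15677 in DMSO. The ratio of means was then 1.07 to DMSO and 1.14 to cabozantinib, so the separation did not hold without PSMF1. PSMF1 was not its only source. PSME3 also had a higher foretinib mean, 9118 against 6440 in cabozantinib and 6046 in DMSO, while the foretinib means of PSME1 and PSME2 were lower. Whether the separation held without PSME3 was not tested.

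PSMF1 was at 10494, 7383 and 6485 in foretinib, 5111, 4863 and 2857 in cabozantinib, and 3893, 6198 and 2729 in DMSO. The lowest foretinib library lay above the highest library of either other group. The foretinib mean was 1.90 times the DMSO and the cabozantinib mean (log2 fold change 0.98, SE 0.33, 95% interval 0.26 to 1.69, limma adjusted p = 0.425). Against cabozantinib the fitted difference was of like size (log2 fold change 0.94, SE 0.33, 95% interval 0.23 to 1.65, limma adjusted p = 0.394). Over the alternatives it ran between 0.52 and 1.29 against DMSO, with adjusted p between 0.0562 and 0.776, and between 0.56 and 1.09 against cabozantinib, with adjusted p between 0.0593 and 0.774. Cabozantinib and DMSO overlapped, with a log2 fold change of 0.04 between them. In foretinib against DMSO 3 members were higher in every foretinib library than in every DMSO library and 0 were lower, where 11.7% of all tested genes had groups that did not overlap, 3.99% higher and 7.69% lower. PSMF1 was one of these, and PSMD1 and PSMC1 were the others.

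PSME3, the nuclear activator, was at 6143, 10332 and 10880.2 in foretinib, 6942, 5424 and 6953 in cabozantinib, and 9378, 3621 and 5138 in DMSO. Foretinib libraries 2 and 4 were the highest of the 9, while foretinib library 1 lay within the range of DMSO (log2 fold change 0.66, SE 0.32, 95% interval -0.04 to 1.36, limma adjusted p = 0.531). The interferon-inducible pair had lower foretinib means. PSME1 was at 3594, 1509.6 and 2356 in foretinib, 2468, 2898 and 3436 in cabozantinib, and 5616, 2784 and 3258 in DMSO. Its foretinib and DMSO libraries overlapped (log2 fold change -0.66, 95% interval -1.47 to 0.14). PSME2 was at 2904, 2133 and 70.1 in foretinib, 2228, 2847 and 2062 in cabozantinib, and 1446, 3437 and 2599 in DMSO, and its low foretinib mean came from library 4. Without that library the log2 fold change of PSME2 against cabozantinib was 0.08, where all libraries gave -1.63. The sum of PSME1 and PSME2 was 6498, 3642 and 2426 in foretinib, 4696, 5745 and 5498 in cabozantinib, and 7063, 6221 and 5857 in DMSO. All 3 cabozantinib sums were below all 3 DMSO sums, at a ratio of 0.833, and the foretinib libraries overlapped both groups. PSME4 averaged 4634 ± 1399 in foretinib, 4012 ± 951 in cabozantinib and 4398 ± 1584 in DMSO, and its groups overlapped in every comparison.

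**Figure D2:**
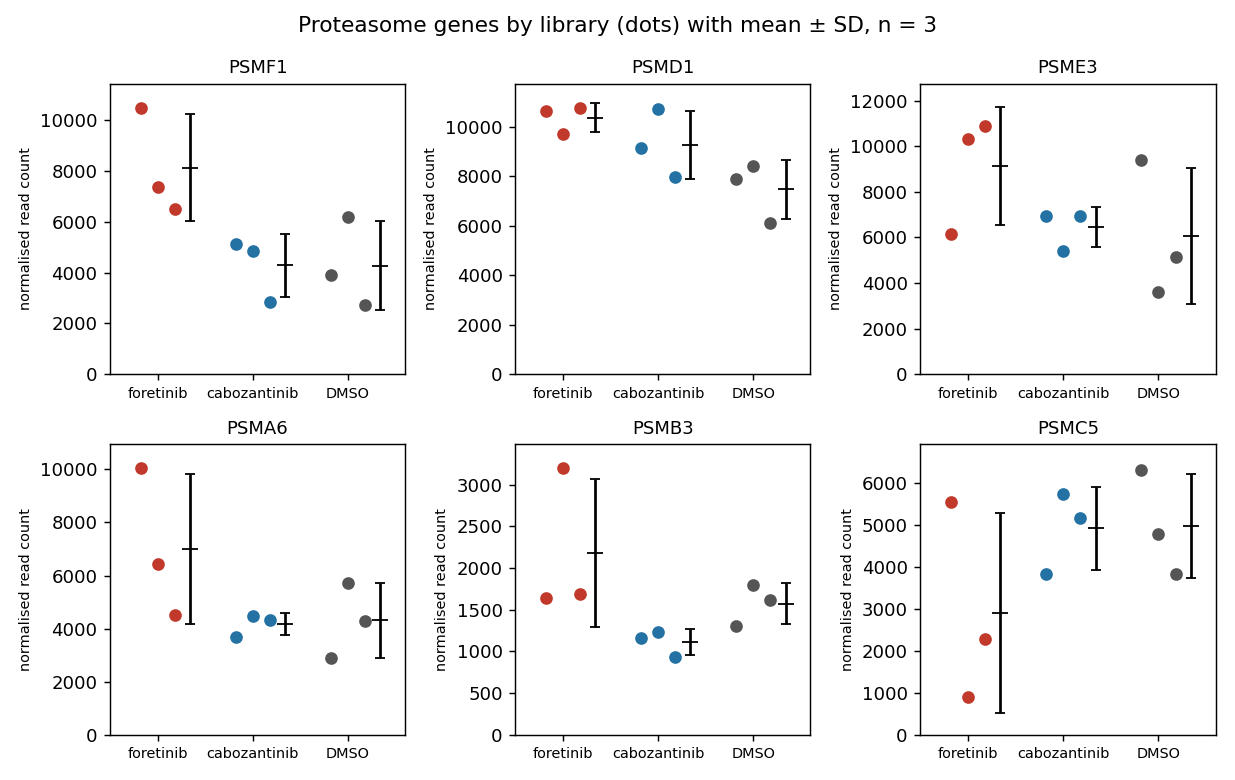
Normalised read counts of PSMF1, PSMD1, PSME3, PSMA6, PSMB3 and PSMC5 in each library (dots), with the group mean ± SD (n = 3) beside them. All foretinib dots of PSMF1 lie above all others, and PSMC5 has foretinib dots between 893 and 5544.

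The standard beta subunits summed to less in cabozantinib than in DMSO. Of the 7 standard beta subunits, 6 had a lower fitted level in cabozantinib than in DMSO, with a median log2 fold change of -0.40 over the 7. The sum of the standard beta genes was 18367, 35923 and 24587 in foretinib, 19451, 20272 and 21132 in cabozantinib, and 21679, 25157 and 24433 in DMSO. Every cabozantinib sum was below every DMSO sum, a ratio of 0.854, and this held with TMM scaling (0.859) and quantile normalisation (0.860). In cabozantinib against DMSO 3 members were lower without overlap, all of them beta subunits, and 5 were higher, PSMA2, PSMC1, PSMC2, PSMG3 and PSMG4, where 9.9% of all tested genes did not overlap, 4.71% lower and 5.18% higher. PSMG4 passed the filter without a DMSO library, so its separation was built into its passing.

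The 3 beta genes without overlap were PSMB1, PSMB3 and PSMB6. PSMB1, a structural subunit, was at 1771, 4555 and 5628 in foretinib, 2660.0, 2098 and 2681 in cabozantinib, and 3364, 2939 and 3466 in DMSO. Its cabozantinib libraries were 0.761 times the DMSO mean (log2 fold change -0.40, SE 0.39, 95% interval -1.23 to 0.43, limma adjusted p = 1.00). PSMB3, also structural and one of the promoters shown, was at 1645, 3205 and 1689.6 in foretinib, 1158, 1238 and 934 in cabozantinib, and 1308, 1797 and 1618 in DMSO. It was the beta gene with the smallest p in foretinib against cabozantinib, where all foretinib libraries lay above all cabozantinib libraries (log2 fold change 0.91, SE 0.43, 95% interval -0.01 to 1.83, limma adjusted p = 0.504), and its foretinib and DMSO libraries overlapped. PSMB6, which carries the caspase-like site, was at 2388, 10647 and 6909 in foretinib, 5243, 4964 and 4587 in cabozantinib, and 6264, 5573 and 5481 in DMSO. Here the foretinib group held both the lowest and the highest of the 9 libraries. PSMB4, whose product helps close the ring, was at 2589, 3331 and 2305 in foretinib, 1519.7, 1838 and 2278 in cabozantinib, and 2126, 3269.7 and 2403 in DMSO, with foretinib above cabozantinib in every library (log2 fold change 0.55, 95% interval -0.18 to 1.27). PSMB2, another structural subunit, averaged 4814 ± 1371 in foretinib, 3758 ± 469.7 in cabozantinib and 4639 ± 551 in DMSO.

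PSMB5, the chymotrypsin-like site and the main target of proteasome inhibitor drugs, was at 1994, 1634 and 1654 in foretinib, 1016, 547 and 1943 in cabozantinib, and 1309, 1432 and 1843 in DMSO. The cabozantinib libraries spread from the lowest value of the 9 to the second highest (log2 fold change -0.56, 95% interval -1.64 to 0.53). PSMB7, the trypsin-like site, averaged 4163 ± 1827 in foretinib, 4959.7 ± 443 in cabozantinib and 4386 ± 997 in DMSO, and it was the standard beta gene with a higher fitted level in cabozantinib than in DMSO (0.20). For the 3 standard catalytic genes the fitted log2 fold changes of foretinib against DMSO were between -0.13 and 0.21.

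**Figure D3:**
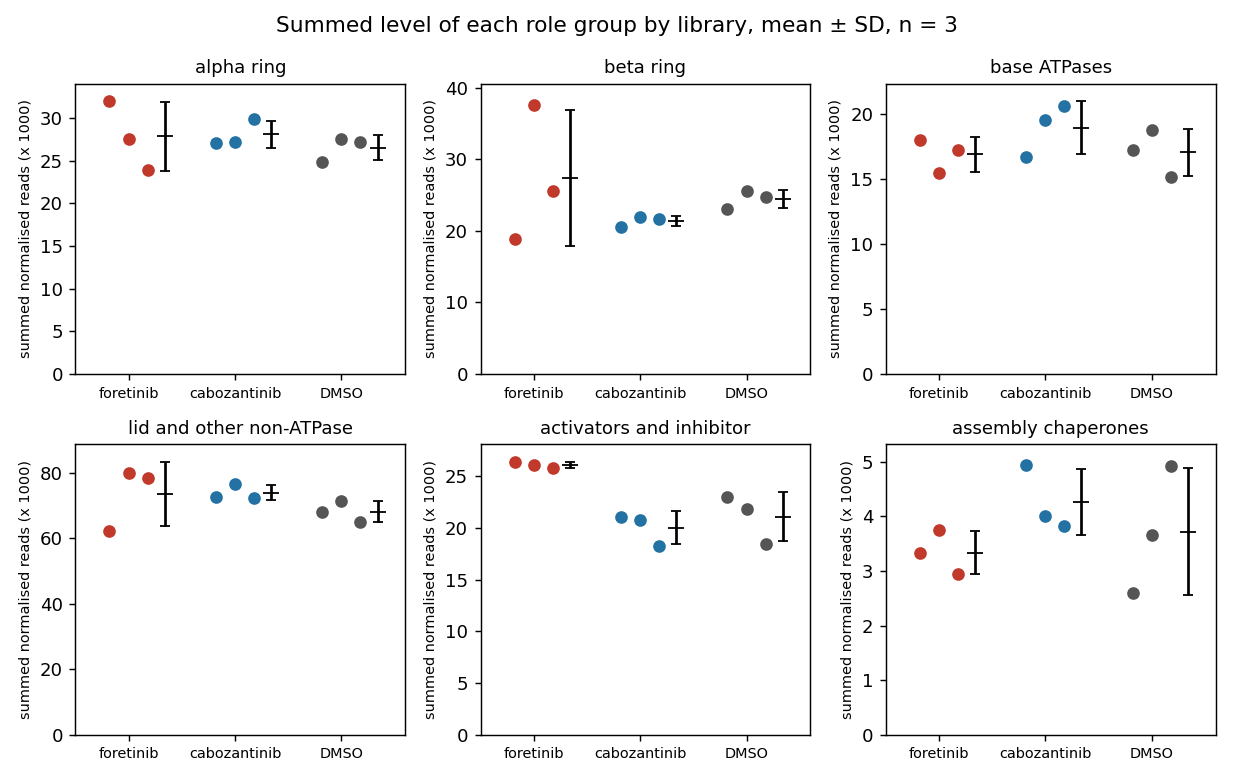
Level of the 6 role groups in each library, as the sum of normalised read counts on an axis in units of 1000 (dots), with the group mean ± SD (n = 3). The 3 foretinib sums of activators and inhibitor lie above the rest, which without PSMF1 they do not, while the beta ring sums run from 18826 to 37636 in foretinib.

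The immune replacements of the catalytic subunits had low mean counts in every group. PSMB8 was at 261, 503 and 1005 in foretinib, 604, 955 and 379 in cabozantinib, and 438, 98.4 and 0 in DMSO. One DMSO library was at 0, so the fitted fold of PSMB8 depends on the pseudocount, and the foretinib and DMSO libraries overlapped. PSMB9 was at 105, 438 and 0 in foretinib, 227, 176 and 94.1 in cabozantinib, and 548, 225 and 186 in DMSO, and PSMB10 was at 92.9, 772 and 32.4 in foretinib, 257, 481 and 34.8 in cabozantinib, and 440.0, 88.4 and 152 in DMSO. Neither separated any pair of groups. Per kb of transcript, PSMB8 averaged 22.5% of the summed level of PSMB8 and PSMB5 in foretinib (lowest library 10.5%), 36.9% in cabozantinib (lowest library 14.9%) and 9.63% in DMSO (highest library 23.1%). The share of PSMB9 in PSMB9 and PSMB6 was 2.97% ± 2.58 in foretinib, 3.49% ± 1.19 in cabozantinib and 5.52% ± 2.81 in DMSO. The share of PSMB10 in PSMB10 and PSMB7 was 4.03% ± 4.40 in foretinib, 3.93% ± 3.16 in cabozantinib and 4.56% ± 4.62 in DMSO. The ranges of the libraries overlapped between all groups for all 3 pairs. PSMB8 shares exon sequence with the antisense gene PSMB8-AS1, and without a stated strand setting their reads cannot be told apart. The same limit applies to each of the 12 members, PSMB8 among them, whose exons overlap those of a gene on the opposite strand.

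The alpha ring, which gates the entrance to the core, summed to 27839 ± 4023 in foretinib, 28077 ± 1598 in cabozantinib and 26516 ± 1466 in DMSO. PSMA6 was at 10063, 6425 and 4519 in foretinib, 3696, 4479.5 and 4322 in cabozantinib, and 2912, 5739 and 4300.4 in DMSO. Every foretinib library of PSMA6 was above every cabozantinib library (log2 fold change 0.68, SE 0.32, 95% interval -0.01 to 1.36, limma adjusted p = 0.504), and foretinib overlapped DMSO (log2 fold change 0.67, SE 0.32, 95% interval -0.01 to 1.36, limma adjusted p = 0.531). PSMA2 was at 3304, 8039.8 and 8826 in foretinib, 9359.7, 8992 and 9475 in cabozantinib, and 6455, 7716 and 8634 in DMSO, so that cabozantinib was above both other groups in every library (log2 fold change -0.59, 95% interval -1.25 to 0.07 for foretinib against cabozantinib). The low foretinib mean of PSMA2 comes from library 1. PSMA3 averaged 1637 ± 556 in foretinib, 2390.1 ± 202 in cabozantinib and 2498 ± 428 in DMSO, with overlapping groups and the second smallest p of the ring in foretinib against DMSO (log2 fold change -0.65, 95% interval -1.42 to 0.12). PSMA4 averaged 6151 ± 1828 in foretinib, 5496 ± 1164 in cabozantinib and 4812 ± 625 in DMSO. PSMA7 averaged 3037 ± 1013 in foretinib, 2795 ± 640.0 in cabozantinib and 3479 ± 436 in DMSO. Both overlapped in all comparisons. PSMA1 averaged 2291 ± 513 in foretinib, 2558 ± 365 in cabozantinib and 2559.6 ± 1065 in DMSO. PSMA5, the lowest expressed of the ring per kb, averaged 997 ± 602 in foretinib, 1396 ± 361 in cabozantinib and 1248 ± 279 in DMSO. Their groups overlapped as well. PSMA6 has 4 named pseudogenes and PSMA2 has 3, and how the counting treated reads of near-identical copies is not known, so these values are uncertain. PSMA2 also shares exon sequence with MRPL32 on the opposite strand.

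The base of the cap holds 6 ATPases, PSMC1 to PSMC6. In foretinib against cabozantinib all 6 fitted changes were below 0, with a median of -0.46. Of the 12642 tested genes 8399 were below 0, and of the 7805 at a mean of 500 or more 4485 were. The mean counts did not all go the same way. PSMC1, PSMC3 and PSMC5 had lower means in foretinib than in cabozantinib. PSMC2 (2718 against 2635), PSMC4 (1977 against 1890) and PSMC6 (1662 against 1025) had higher means in foretinib. PSMC5 was at 5544, 893 and 2276 in foretinib, 3835, 5755 and 5176 in cabozantinib, and 6307, 4798 and 3839 in DMSO. Foretinib libraries 2 and 4 were the lowest of the 9 and library 1 lay within the DMSO range, so the groups overlapped (log2 fold change -1.12, SE 0.50, 95% interval -2.19 to -0.05, limma adjusted p = 0.531). Without foretinib library 2 the PSMC5 log2 fold change was -0.46, and without library 1 it was -1.77. Against cabozantinib it was -1.11 (limma adjusted p = 0.490). PSMC5 shares exon sequence with FTSJ3 on the opposite strand.

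PSMC1 was higher in both drug groups than in DMSO. It was at 6460.3, 6333 and 6661 in foretinib, 6447, 7426 and 7787 in cabozantinib, and 5039, 6056 and 6029 in DMSO, so that neither drug group overlapped DMSO (log2 fold change 0.19, 95% interval -0.23 to 0.61 in foretinib; log2 fold change 0.34, 95% interval -0.08 to 0.76 in cabozantinib). PSMC1 has 13 named pseudogenes, the most of the members, and shares exon sequence with NRDE2 on the opposite strand. PSMC2 was at 1627, 2111 and 4416 in foretinib, 2881, 2310.0 and 2716 in cabozantinib, and 1768, 2214 and 1558 in DMSO, with cabozantinib above DMSO in every library (log2 fold change 0.52, 95% interval -0.33 to 1.37). PSMC3 was at 790.2, 2399.8 and 196 in foretinib, 861, 1425 and 1466 in cabozantinib, and 1290.1, 1484 and 1523 in DMSO, and its foretinib libraries held both the lowest and the highest of the 9 values. PSMC4 averaged 1977 ± 1486 in foretinib, 1889.8 ± 462 in cabozantinib and 2493 ± 761 in DMSO. PSMC6 was at 2701, 23.0 and 2262 in foretinib, 599, 1237 and 1239.8 in cabozantinib, and 369, 924 and 447 in DMSO, a foretinib range that contained all other libraries.

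The remaining subunits of the cap and their helpers, PSMD1 to PSMD14, gave the highest sum of any role group, 73479 ± 9836 in foretinib, 73820 ± 2328 in cabozantinib and 68083 ± 3134 in DMSO. Every cabozantinib sum (72273 to 76498) was above every DMSO sum (64946 to 71215), a ratio of means of 1.08. This held with TMM scaling (1.09) and narrowly with quantile normalisation (1.09), where the lowest cabozantinib sum was 73023 and the highest DMSO sum 72973. The foretinib sums, 62156 to 79898, overlapped both groups. In cabozantinib against DMSO 8 of the 14 fitted changes were above 0 and 6 below, with a median of 0.10. No PSMD gene separated these groups on its own. The sum gives most weight to abundant genes such as PSMD7, which averaged 15099 in cabozantinib and 12531 in DMSO. Whether the separation held without PSMD7 was not tested. PSMD1 and PSMD2 are the scaffold proteins of the base. PSMD1, whose promoter is shown, was at 10613, 9714 and 10774 in foretinib, 9135, 10699 and 7960.3 in cabozantinib, and 7870.4, 8415 and 6114 in DMSO. All foretinib libraries were above all DMSO libraries (log2 fold change 0.49, SE 0.19, 95% interval 0.07 to 0.90, limma adjusted p = 0.518), and cabozantinib overlapped both. Leaving out each library in turn kept the PSMD1 value between 0.35 and 0.58. PSMD2 averaged 6676 ± 2688 in foretinib, 5772 ± 1015 in cabozantinib and 7176 ± 1134 in DMSO, with a fitted change below 0 in both drugs against DMSO (-0.16 in foretinib and -0.32 in cabozantinib).

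PSMD4, the ubiquitin receptor, averaged 9253 ± 3423 in foretinib, 10078 ± 755 in cabozantinib and 10388 ± 1235 in DMSO. Its groups overlapped (log2 fold change -0.24, 95% interval -0.79 to 0.31 in foretinib against DMSO). PSMD14, the deubiquitinase that strips the chain off, averaged 3616 ± 1243 in foretinib, 3265 ± 68.2 in cabozantinib and 3718 ± 819.6 in DMSO. PSMD7, its partner in the lid, averaged 11834 ± 2771 in foretinib, 15099 ± 2333 in cabozantinib and 12531 ± 1711 in DMSO and had the smallest p of the group in foretinib against cabozantinib (log2 fold change -0.37, SE 0.21, 95% interval -0.81 to 0.07, limma adjusted p = 0.528). PSMD11, which clamps the lid to the core, averaged 3073 ± 599 in foretinib, 3111 ± 255 in cabozantinib and 2478 ± 618 in DMSO (log2 fold change 0.32, 95% interval -0.34 to 0.99 in foretinib against DMSO). These 4 genes overlapped between all groups.

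None of the other lid subunits separated any groups on its own. PSMD6 averaged 6353 ± 1780.0 in foretinib, 7238 ± 901 in cabozantinib and 5789.9 ± 812 in DMSO and had a fitted change of 0.32 in cabozantinib against DMSO. PSMD8 averaged 4667 ± 1408 in foretinib, 3639.5 ± 934 in cabozantinib and 3346 ± 734 in DMSO, with 0.46 in foretinib against DMSO. PSMD3 averaged 4932 ± 1109 in foretinib, 3999.9 ± 1311 in cabozantinib and 4075 ± 796 in DMSO. These 3 genes overlapped between all groups. PSMD12 averaged 4019 ± 1916 in foretinib, 3377 ± 637 in cabozantinib and 3476 ± 399 in DMSO. PSMD13 averaged 1028 ± 791 in foretinib, 1156 ± 348 in cabozantinib and 824 ± 260.3 in DMSO. Both overlapped likewise. PSMD5, PSMD9 and PSMD10 encode chaperones that assemble the base. PSMD10, the oncoprotein gankyrin, was at 2152, 2576 and 1469 in foretinib, 2544, 2588 and 1880.1 in cabozantinib, and 269, 1699 and 2297 in DMSO. The DMSO mean of PSMD10 was set by library 2, and without it the log2 fold change in foretinib was 0.03, where all libraries gave 0.98. PSMD5 averaged 1564 ± 622 in foretinib, 966 ± 486 in cabozantinib and 1167 ± 164 in DMSO, and PSMD9 averaged 4029.9 ± 2509.8 in foretinib, 4515 ± 366 in cabozantinib and 4227 ± 150.3 in DMSO.

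The assembly chaperones of the core were the least abundant role group, at 3336 ± 400.3 in foretinib, 4259 ± 599 in cabozantinib and 3720.4 ± 1160 in DMSO. PSMG1 and PSMG2 work as a pair in building the alpha ring. PSMG1 averaged 1396 ± 381 in foretinib, 2167 ± 736 in cabozantinib and 1857 ± 961 in DMSO, PSMG2 averaged 948 ± 211 in foretinib, 913 ± 465 in cabozantinib and 1011 ± 609 in DMSO, and both overlapped between all groups. PSMG3, which pairs with PSMG4, was at 1243, 866 and 852 in foretinib, 1163, 952 and 945 in cabozantinib, and 932, 746 and 880.0 in DMSO, with cabozantinib above DMSO in every library (log2 fold change 0.26, 95% interval -0.90 to 1.42). PSMG4 was at 0, 11.5 and 0 in foretinib, 29.8, 427 and 21.5 in cabozantinib, and 0 in all 3 DMSO libraries. It was listed at 0 in DMSO, so no fold is given, and 1 cabozantinib library carried most of its reads.

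Foretinib and cabozantinib were the 1 pair of compounds compared, at the same dose and time, so no further adjustment over pairs applies. Foretinib differs from cabozantinib by an added fluorine on its middle phenyl ring, and its quinoline carries a propoxy chain ending in morpholine at a position where cabozantinib has a methoxy group. With 0 members called, the foretinib to cabozantinib ratio of the summed members was 1.051 (174954 ± 14894 against 166496 ± 3443), and it was 0.985 under quantile normalisation. Without overlap 4 members were higher in foretinib than in cabozantinib, PSMF1, PSMA6, PSMB3 and PSMB4, and 2 were lower, PSMA2 and PSMG4, of which PSMG4 passed the filter through its cabozantinib libraries, where 14.2% of all tested genes did not overlap, 4.49% higher and 9.7% lower. Only 16 of 46 members had an interval within a 2-fold change, so the data do not show that the compounds act alike on these genes. Both comparisons with the vehicle share the DMSO libraries.

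**Figure D4:**
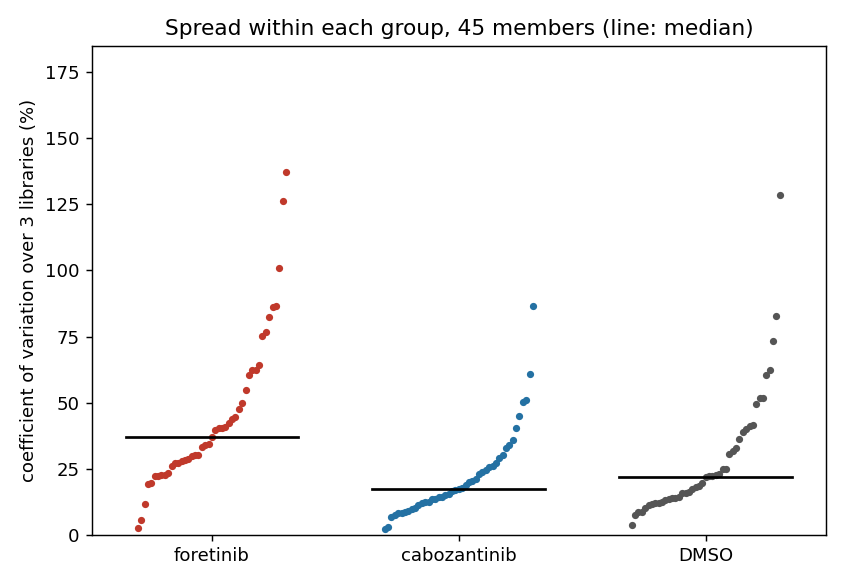
Coefficient of variation over the 3 libraries of a group (percent) for 45 tested members (dots, sorted within a group), with the median as a line. The median is 37.0% in foretinib, 17.4% in cabozantinib and 21.9% in DMSO.

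Over the members together, libraries of 1 group spread most in foretinib, though not in every role. Over the 45 tested members above 0 in all groups the median coefficient of variation was 37.0% in foretinib, 17.4% in cabozantinib and 21.9% in DMSO, and 13, 4 and 7 members were over 50% in that order. Among all tested genes at a mean of 500 or more the medians were 48.9%, 23.7% and 27.9%, so wider spread in foretinib was also seen outside the proteasome. The spread was not the same in all roles. In foretinib the median was 78.7% for the 6 ATPases, 46.9% for the 10 tested beta genes and 32.3% for the 14 PSMD genes. For the activators and inhibitor DMSO spread most, with medians of 30.2% in foretinib, 17.4% in cabozantinib and 40.1% in DMSO. The tested assembly chaperones spread least in foretinib, at 24.9%, 42.5% and 51.7% in that order, the last over 3 genes. PSMC1, by contrast, varied by 2.55% in foretinib.

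Subunits that enter each core particle in equal number differed widely in transcript level. Levels were divided by the median length of a gene's coding transcripts in GENCODE v29 to give normalised reads per kb. In DMSO the 14 standard core genes ran from 477 ± 107 per kb for PSMA5 to 7006 ± 1008 per kb for PSMA2, a ratio of 14.7 between the means. In cabozantinib this ratio was 16.0 and in foretinib 20.5, where PSMA6 was the highest. The ratio in DMSO was 19.8 when the longest transcript of each gene was used. With median lengths the highest member was PSMD7, at 12712 ± 2976 per kb in foretinib, 16218 ± 2506 in cabozantinib and 13459 ± 1838 in DMSO. In DMSO it was followed by PSMD4 at 7744 ± 920.4, PSMA2 and PSMB6 at 6701 ± 497 per kb, and the ranges of mean ± SD of these 3 overlapped. The first place depended on the length used. With the longest transcripts PSMD7 came to 7503 ± 1025 per kb in DMSO, below PSMD4 at 7695 ± 915, and to 7086 ± 1659 in foretinib, below PSMB6 at 7633 ± 4748. The ATPases of the base ran from 365 ± 189 per kb for PSMC6 to 3271 ± 817 for PSMC5 in DMSO.

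**Figure D5:**
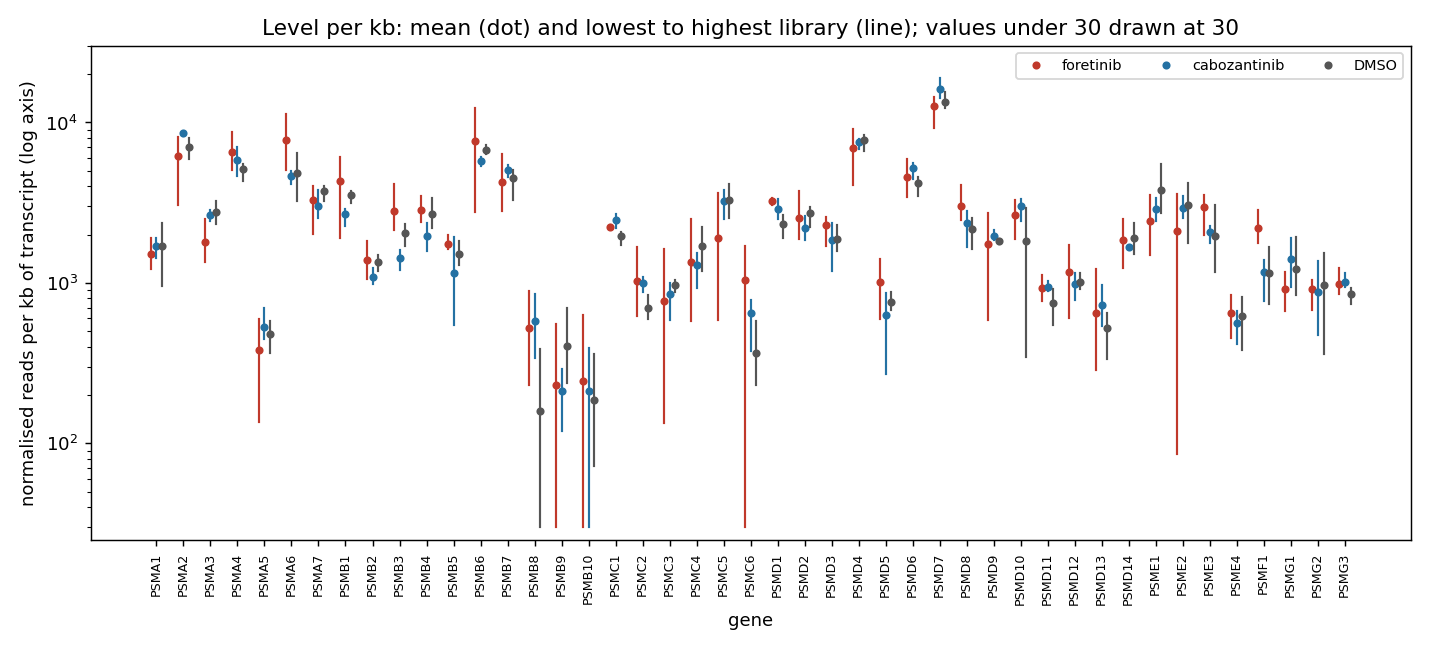
Normalised reads per kb of transcript (log axis) of 45 members in foretinib, cabozantinib and DMSO, as the group mean (dot) and the lowest to highest library (line); values under 30 are drawn at 30. PSMD7 is the highest with the median transcript lengths used, and PSMB8, PSMB9 and PSMB10 are among the lowest.

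Genes that act around the proteasome gave 0 calls in each of 7 lists and 3 comparisons. NFE2L1, the transcription factor named above, averaged 4165 ± 1753 in foretinib, 3713 ± 706 in cabozantinib and 3305 ± 234 in DMSO (log2 fold change 0.26, 95% interval -0.41 to 0.93 in foretinib). Its relative NFE2L2 averaged 3502 ± 1223 in foretinib, 2943 ± 243 in cabozantinib and 3884 ± 804 in DMSO. Of the 8 factors and processing enzymes of this group 0 passed, and 2 were lower in foretinib than in DMSO at an unadjusted p under 0.05, against 6.9% of all tested genes. One was MAFG, a small MAF partner of both factors, at 625, 868 and 393 in foretinib, and 2359, 1614 and 952 in DMSO, without overlap (log2 fold change -1.36, SE 0.58, 95% interval -2.60 to -0.12, limma adjusted p = 0.528). The other, MAFF, was listed at 0 in all foretinib libraries and passed the filter only through the other groups, so its lower level was built into its passing and no fold is given.

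Among 9 class I antigen processing and interferon-inducible genes, B2M, the light chain of class I molecules, was at 3034, 2855 and 3458 in foretinib, 2632, 2354 and 2995 in cabozantinib, and 1121, 2118 and 1476 in DMSO. Both drug groups lay above DMSO in every library (log2 fold change 1.03, SE 0.34, 95% interval 0.30 to 1.76, limma adjusted p = 0.415 in foretinib; log2 fold change 0.80, 95% interval 0.07 to 1.53 in cabozantinib). IRF1, an interferon-induced factor, was at 0.822, 0.960 and 0 in foretinib, 269, 343 and 371 in cabozantinib, and 408, 2.01 and 121 in DMSO. ERAP2, a peptide-trimming enzyme, was at 0.822, 0 and 0 in foretinib, 199, 174 and 287 in cabozantinib, and 656, 153 and 255 in DMSO. ERAP2 and IRF1 were near 0 in foretinib and passed the filter through the other groups. TAPBP, which loads peptides onto class I molecules, was at 535, 1117 and 772 in foretinib, 695, 981 and 770.2 in cabozantinib, and 446, 511 and 435 in DMSO, and both drug groups lay above DMSO in every library. ERAP1, the relative of ERAP2, was at 1419, 2185 and 1192 in foretinib, 1023, 635 and 82.9 in cabozantinib, and 719, 1022 and 653 in DMSO. Of the 9 genes, 3 were higher and 2 lower in foretinib than in DMSO without overlap (11.7% of all tested genes), and 2 were higher and 0 lower in cabozantinib than in DMSO (9.9%). The 2 lower genes were ERAP2 and IRF1, which passed the filter without a foretinib library, so they carry no weight beside that share. IRF1 separated from DMSO only at 0.960 against 2.01. TAP1, the peptide transporter gene that lies between PSMB8 and PSMB9, was at 3018, 1324 and 895 in foretinib, 1178, 510.2 and 1266 in cabozantinib, and 1144, 673 and 1359 in DMSO, and its groups overlapped.

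The 6 genes of ubiquitin and its activating enzymes summed to 107456 ± 5409 in foretinib, 102823 ± 3916 in cabozantinib and 104117 ± 4642 in DMSO. RPS27A, which encodes ubiquitin fused to a ribosomal protein, was at 10475, 9793 and 7774 in foretinib, 15719.7, 13476 and 13894 in cabozantinib, and 8845, 15373 and 14251 in DMSO (log2 fold change -0.63, SE 0.22, 95% interval -1.09 to -0.16, limma adjusted p = 0.394 in foretinib against cabozantinib). UBB, a polyubiquitin gene, was at 15151, 19053 and 14406 in foretinib, 12139, 13870.1 and 9948 in cabozantinib, and 14948, 12352 and 12557 in DMSO, and UBA1, the main activating enzyme, at 24102, 28397 and 20763 in foretinib, 18937, 16299.7 and 19399 in cabozantinib, and 22173, 16044 and 20783 in DMSO. Of the 6 genes of this list these 3 did not overlap between foretinib and cabozantinib, 1 lower and 2 higher in foretinib, against 14.2% of all tested genes, and each overlapped between foretinib and DMSO. VCP, the p97 segregase that extracts substrates for the proteasome, averaged 5632 ± 1343 in foretinib, 3781 ± 489 in cabozantinib and 4409 ± 347 in DMSO (log2 fold change 0.55, SE 0.25, 95% interval 0.01 to 1.10, limma adjusted p = 0.501 in foretinib against cabozantinib), and FAF2, a p97 cofactor, averaged 4276 ± 803 in foretinib, 5730.2 ± 1072 in cabozantinib and 6461 ± 1165 in DMSO. POMP, the assembly factor of the core, averaged 2734 ± 828 in foretinib, 3172 ± 55.4 in cabozantinib and 3116 ± 701 in DMSO, and ADRM1, a ubiquitin receptor of the cap, averaged 1471 ± 783 in foretinib, 2374 ± 267 in cabozantinib and 1703 ± 424 in DMSO. Neither separated foretinib from DMSO. The partner proteins of the cap outside the PSM symbols summed to 33422 ± 3675 in foretinib, 33909.9 ± 2108 in cabozantinib and 32018 ± 2392 in DMSO. The shuttle receptors, which carry ubiquitin-tagged proteins to the proteasome, summed to 36207 ± 1610.5 in foretinib, 34147 ± 3338 in cabozantinib and 32795 ± 2967 in DMSO. In bulk RNA, fewer cells of a kind and less RNA per cell cannot be told apart.

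Neuroendocrine markers of the labelled line were present. All 12 neuroendocrine genes examined were detected, with a summed level of 88799.8 to 98727 in foretinib, 89323 to 96189 in cabozantinib and 83704 to 92827 in DMSO. Of the 5 epithelial genes examined KRT8 and KRT18 were detected in every library, and KRT19 was at 0 in all 9. EPCAM, at most 715, and CDH1, at most 170, were at 0 in some libraries. The epithelial genes summed to 2603 to 5109 in foretinib, 4271 to 6674 in cabozantinib and 3962 to 6554 in DMSO. Markers of leukocytes, endothelium, fibroblasts and red cells were in part at 0. PTPRC, CD3E and CD14 of leukocytes, VWF and CDH5 of endothelium, and COL3A1 and DCN of fibroblasts were at 0 in all 9 libraries. The collagen gene COL1A2 was detected in every library, and the 5 fibroblast genes summed to 869 to 1194 in foretinib, 767 to 1049 in cabozantinib and 453 to 1345 in DMSO. The endothelial genes summed to 0 in foretinib, 0 to 53.2 in cabozantinib and 0 to 87.4 in DMSO, all of it PECAM1, and the leukocyte genes, all of it LYZ, to at most 9.04 in foretinib, 61.6 in cabozantinib and 71.3 in DMSO. HBA2 of red cells reached 141 in cabozantinib and was at 0 in foretinib and DMSO.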

How the data were processed

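RNA from 9 libraries of NCI-H1155 cells was analysed. The authors deposited 1 signal value per gene and library, the reads of a gene scaled by a factor of its library; 100% of the values in each column were whole multiples of 1 step, within 1e-06 of a read, and 1 read was worth 0.822 to 1.05 across libraries. Build hs37d5, HTSeq, DESeq2, Cufflinks 2.2.1 and TopHat2 2.0.13 appear in the submitters' processing notes; the sources used here give neither the annotation nor the strand setting. Totals of recovered reads were 26996023 to 34062153.

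Values were tested as log2(value + 1) with limma 3.58.1 (R 4.3.3) over 12642 genes with at least 10 in 3 libraries, in 1 model of 3 groups, with Benjamini-Hochberg adjustment over all of them. Fold changes are on that scale, and zeros distort those of low genes. On recovered reads, edgeR 4.0.16 called 0 genes in each comparison and DESeq2 1.42.0 called 656, 49 and 621. Other alternatives were pseudocounts, filters, scalings, a replicate block and leaving out libraries. Named genes were the 3 smallest p of each role and comparison, and throughout the catalytic genes and their replacements, PSMD4, PSMD11, PSMD14, the activators and inhibitor and members with a 0 (PSMG4, at 0 in DMSO, without a fold); of the other lists, the text gives some. Members and lists were chosen with earlier results of these data known.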

Additional observations from a re-analysis of the deposited data

How the results depend on the processing

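No alternative called a member in any comparison. Over all genes limma called 0 in each comparison, with 9.07%, 1.31% and 9.9% at an unadjusted p under 0.05 in foretinib against DMSO, cabozantinib against DMSO and foretinib against cabozantinib. DESeq2 on recovered reads called 656 in the first (120 higher, 536 lower), 49 in the second and 621 in the last, edgeR called 0, and quantile normalisation called 1 in foretinib against DMSO; the cause was not tested. With each gene's group mean subtracted, the deviations of same-numbered libraries correlated at -0.00223 to 0.0288 across genes. The numbers were therefore not taken to pair libraries, and the replicate block called 0 genes. With the replicate block the member median in cabozantinib against DMSO was 0.14. Without each library in turn the member median was 0.0047 to 0.12 in foretinib against DMSO, -0.025 to 0.12 in cabozantinib against DMSO and -0.097 to 0.044 in foretinib against cabozantinib, where edgeR gave 0.023 and DESeq2 0.059. The summed ratio of cabozantinib to DMSO was 1.017 to 1.06 in the same way. Of 1319 log2 fold changes of named members under alternatives, 81 changed sign, in 33 of 83 member and comparison pairs, none of them called; the cause was not tested. In foretinib against DMSO, with edgeR PSMG2 was -0.13, PSMB6 was 0.18 and PSMB10 was 0.39. With DESeq2 PSMG2 was -0.092, PSMB6 was 0.21 and PSMB10 was 0.41. With quantile normalisation PSMB10 was 2.01 and PSME4 was -0.014. With the replicate block PSMB6 was 0.51, PSMD4 was 0.057 and PSMD14 was 0.12. Leaving out each library in turn gave, in foretinib against DMSO, -1.70 to 0.57 for PSMB10, -0.50 to 0.57 for PSMB6, -0.47 to 0.12 for PSMB7, -0.32 to 0.19 for PSMD14, -0.47 to 0.10 for PSMD4, -2.59 to 0.085 for PSME2, -0.22 to 0.34 for PSME4, -0.54 to 0.064 for PSMG1 and -0.48 to 0.56 for PSMG2. In cabozantinib against DMSO, with edgeR PSMB10 was 0.19 and PSME2 was -0.065. With DESeq2 PSMB10 was 0.19 and PSME2 was -0.066. With quantile normalisation PSMB10 was 0.45. With the replicate block PSMB9 was 0.36, PSMB10 was 0.62, PSMD4 was 0.0090 and PSMF1 was -0.041. With a pseudocount of 100 PSMB10 was 0.043. Leaving out each library in turn gave, in cabozantinib against DMSO, -0.92 to 0.96 for PSMB10, -0.0044 to 0.31 for PSMB7, -0.14 to 0.024 for PSMD4, -0.34 to 0.28 for PSME2, -0.12 to 0.57 for PSME3, -0.41 to 0.15 for PSME4, -0.25 to 0.35 for PSMF1 and -0.64 to 0.40 for PSMG2. In foretinib against cabozantinib, with edgeR PSMB9 was 0.099 and PSMB10 was 0.19. With DESeq2 PSMB9 was 0.13 and PSMB10 was 0.22. With quantile normalisation PSMB9 was 0.93, PSMB10 was 1.56 and PSMD14 was -0.029. With the replicate block PSMA2 was 0.043, PSMD8 was -0.038 and PSMD4 was 0.048. Leaving out each library in turn gave, in foretinib against cabozantinib, -1.55 to 0.71 for PSMB10, -0.28 to 0.80 for PSMB6, -0.73 to 0.24 for PSMB8, -3.93 to 0.46 for PSMB9, -1.63 to 0.18 for PSMC3, -0.18 to 0.094 for PSMD11, -0.16 to 0.35 for PSMD14, -0.43 to 0.14 for PSMD4, -0.62 to 0.0011 for PSME1, -2.60 to 0.079 for PSME2, -0.018 to 0.44 for PSME4, -0.22 to 0.54 for PSMG2 and -0.24 to 0.035 for PSMG3. The use of the longest transcript for levels per kb, which moved the span of the core genes in DMSO to 19.8 and took first place from PSMD7 in DMSO and foretinib, was chosen after seeing the data, as was the activator sum without PSMF1. With 3 libraries a group the median 95% interval of a member was 1.63 wide on the log2 scale, which limits what could be detected.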
